A study of Mus musculus with 6 samples.

Results

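The glycolysis and hypoxia response genes of mouse skin were followed through the cell types of untreated, imiquimod-treated and SHP099-treated dorsal skin. The set held 33 gene symbols, chosen by name from the 31053 genes of the deposited gene list, and every symbol was found there. Aldoa occurs there under 2 entries, so the 33 symbols took 34 entries, and the second Aldoa entry carried almost no molecules. The members were grouped by role into glucose uptake (Slc2a1, Slc2a3), the first steps of glycolysis, which spend ATP (Hk1, Hk2, Gpi1, Pfkl, Pfkm, Pfkp, Pfkfb3, Pfkfb4, Aldoa, Aldoc, Tpi1), the later steps, which return it (Gapdh, Pgk1, Pgam1, Eno1, Pkm), the fate of pyruvate and lactate (Ldha, Pdk1, Slc16a3), oxygen sensing (Hif1a, Egln1, Egln3) and other hypoxia response genes (Bnip3, Bnip3l, Ankrd37, Ndrg1, Ero1l, P4ha1, P4ha2, Adm, Ddit4).

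Glycolysis splits glucose into pyruvate in the cytosol and yields ATP without oxygen, and lactate dehydrogenase then turns pyruvate into lactate, which monocarboxylate transporters carry out of the cell. The transcription factor HIF-1, a dimer of Hif1a and Arnt proteins, is degraded in normal oxygen after prolyl hydroxylases of the Egln family mark its alpha subunit, and at low oxygen it switches on most glycolytic genes together with genes of mitophagy, collagen hydroxylation and vessel growth. Because HIF-1 is controlled mainly through the stability of its protein, the Hif1a transcript is no direct readout of its activity. The epidermis has no blood vessels of its own and is known for a high rate of glycolysis.

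All mice were female C57BL/6 animals aged 8 to 10 weeks, and no group carried a genetic change. The Sham group received no treatment. The IMQ group had 62.5 mg of 5% cream with imiquimod, a TLR7 agonist that causes psoriasis-like inflammation, put on the shaved back each day for 4 days, with the skin taken 1 day after the last dose. The IMQ+SHP099 group had the same cream and in addition SHP099 hydrochloride by gavage at 10 mg/kg each day for 4 days, and the labels leave unclear whether both courses ran together. SHP099 blocks the tyrosine phosphatase SHP2 (gene Ptpn11) by locking it in its closed form. Each group had 2 single-cell RNA libraries of unsorted dorsal skin cells, each pooled from several mice, so the p-values below measure the spread between pooled libraries and not between animals.

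The 6 libraries held 55201 barcodes and between 53913865 and 188283327 unique molecules (UMIs, each counted once per captured RNA) per library, and 50850 cells passed the filters. A gate on cell type markers, none of them a member, placed 45810 cells in 14 classes, and class names below stand for this gate. The median UMIs per kept cell ran from 5645 in IMQ+SHP099 2 to 18263.5 in IMQ+SHP099 1. Any pair of libraries shared 12 to 30 barcodes. The basal keratinocyte class held 7605 cells and the suprabasal class 4261, while neutrophils reached the minimum of 20 cells in only 3 libraries, IMQ 1, IMQ 2 and IMQ+SHP099 2. Levels are given as UPM, the UMIs of a gene over all UMIs of the class in that library, scaled like CPM. Since 3-prime counting gives about 1 UMI per captured RNA whatever its length, UPM needs no length correction. Many glycolytic genes, among them Gapdh, Ldha, Pgk1 and Eno1, have near-identical processed copies elsewhere in the genome, so their counts carry an uncertainty from reads that fit more than 1 place.

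The comparison of IMQ with Sham in basal keratinocytes asked whether the set moved with inflammation. The basal layer is the dividing layer of the epidermis, but keratinocytes with a high score for cycling markers formed a class of their own. That class held 1904 cells and was not tested, so the basal class stands for basal cells outside it. Of 33 members tested, 7 rose and 0 fell in edgeR's quasi-likelihood test with Benjamini-Hochberg adjusted p under 0.05, where 7.62% of all genes tested rose. The members that rose were Hk2, Pgk1, Pgam1, Eno1, Pkm, Ldha and Slc16a3, which make up 4 of 5 genes of the later steps, 2 of 3 genes of pyruvate and lactate fate and 1 of 11 genes of the first steps. No member of glucose uptake, oxygen sensing or the other hypoxia response genes passed. The median log2 fold change of the members was 0.61, against -0.10 over all genes tested.

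Slc16a3, the lactate exporter MCT4, stood at 6.94 and 22.5 UPM in Sham, 89.7 and 53.3 in IMQ, then 111 and 54.2 with SHP099 added. The 4 treated libraries lay above both Sham libraries, and the rise from Sham to IMQ was 5.90-fold (log2 2.56, SE 0.53, n = 2 per group, adjusted p = 0.0132). Ldha, which makes lactate from pyruvate, was at 354 and 433 UPM in Sham and 1311 and 1077 in IMQ, with 1543 and 776 in IMQ+SHP099. It rose 3.34-fold from Sham to IMQ (log2 1.74, SE 0.45, adjusted p = 0.0301).

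Hk2, the inducible hexokinase that traps glucose in the cell, was at 34.2 and 55.3 UPM in Sham, 98.1 and 92.7 in IMQ, then 121 and 115 with SHP099 added. Its IMQ values differed by less than its Sham values did, and it rose 2.40-fold (log2 1.26, SE 0.26, adjusted p = 0.0137). Hk1, the hexokinase of most resting cells, stood at 41.5 and 63.9 UPM in Sham and 39.4 and 42.5 in IMQ. The platelet-type phosphofructokinase Pfkp was at 124 and 244 UPM in Sham and 115 and 116 in IMQ, so neither of these genes shared the upward shift of Hk2.

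Among the later steps, Pgk1 (phosphoglycerate kinase, the first ATP-making step) was at 172 and 240.5 UPM in Sham and 609 and 491 in IMQ, a rise of 2.96-fold (log2 1.57, SE 0.43, adjusted p = 0.0382). Pgam1, the mutase after it, was at 199.8 and 277 UPM in Sham and 742 and 599 in IMQ (log2 1.65, SE 0.40, adjusted p = 0.0257). Eno1, the enolase of the next step, was at 136 and 177 UPM in Sham and 422 and 339 in IMQ (log2 1.43, SE 0.38, adjusted p = 0.0327). Pkm, the pyruvate kinase gene that ends the pathway, was at 431 and 451 UPM in Sham and 1414 and 1048 in IMQ (log2 1.60, SE 0.44, adjusted p = 0.0389). In each of these genes both IMQ libraries lay above both Sham libraries and IMQ 1 lay above IMQ 2. Since the genes were named because they passed, the separation from Sham is no added support.

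Gapdh, whose enzyme makes the NADH of the pathway, was the most abundant member in these cells, at 1065 and 867 UPM in Sham and 3111 and 2475 in IMQ. Its log2 fold change of 1.62 (SE 0.53) missed the threshold (adjusted p = 0.0696), although its size was like that of its neighbours in the pathway. Slc2a1, the glucose transporter GLUT1, was at 108 and 126 UPM in Sham and 254 and 198 in IMQ (log2 1.08, SE 0.42, adjusted p = 0.113). Hif1a was at 271 and 307 UPM in Sham and 427 and 380.0 in IMQ (log2 0.61, SE 0.33, adjusted p = 0.238). For all 3 genes the IMQ libraries lay above the Sham libraries, but the difference was not separated from the spread between libraries at this threshold.

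The other hypoxia response genes of basal keratinocytes had no common direction, with 4 of 9 above 0 on the log2 fold scale. P4ha1, a subunit of the collagen prolyl hydroxylase, was at 25.6 and 56.6 UPM in Sham and 17.8 and 19.2 in IMQ. Adm, the gene of the vasodilator peptide adrenomedullin, was at 177 and 20.1 UPM in the 2 Sham libraries and at 40.3 and 22.6 in IMQ, so the Sham libraries alone spanned the whole range of the IMQ ones. Ndrg1 was at 87.8 and 129 UPM in Sham and 119.5 and 58.7 in IMQ, with the groups overlapping.

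Of the fixed lists of other pathway genes, 13 further glycolysis genes were tested in basal keratinocytes and 1 rose and 1 fell, while of 28 further hypoxia response genes 5 rose and 3 fell. Stc2, the secreted glycoprotein stanniocalcin-2, rose by 4.43 (SE 0.55) and Slc16a1, the monocarboxylate transporter MCT1, by 2.11 (SE 0.49) on the log2 scale. Rora, a nuclear receptor gene, fell by 3.21 (SE 0.35), Txnip, an inhibitor of thioredoxin and of glucose uptake, by 2.27 (SE 0.46), and Pfkfb2 by 1.98 (SE 0.48) on the same scale.

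Other quantities moved with this contrast. Basal cells of Sham had medians of 8291.5 and 13416.5 UMIs per cell, against 34051.5 and 26428 for IMQ and 22908.5 and 22548 with SHP099 added, and the summed level of 8 dissociation stress genes was 13834 and 12458 UPM in Sham against 6267 and 6228 in IMQ. The summed neutrophil markers, a list that includes S100a8 and S100a9, stood at 380 and 214 UPM in Sham and 10940 to 25810 in the treated libraries. In fibroblasts the same list was at 368 and 298 UPM in Sham and 444 and 358 in IMQ. The part of these markers in the result, like that of depth and stress, was not tested. With S100a8 and S100a9 left out of the gate, an alternative chosen after seeing the data, 7 members rose, beside 961 of 12597 genes. The number that rose depended on single libraries. In fits that left 1 library in a group, the members' median log2 fold change was 0.39 without IMQ 1, 0.74 without IMQ 2 and 0.60 without Sham 2. When cells were classed by their whole profile instead of by markers, 1 of 32 members rose, a share near that of all genes, 453 of 12164. DESeq2 gave 12 that rose, beside 1231 of 19922 genes. With class totals as library size, which moved the median of all genes to -0.24, 9 members rose and 0 fell. Beside them 634 of 12592 genes rose and 882 fell.

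**Figure D1:**
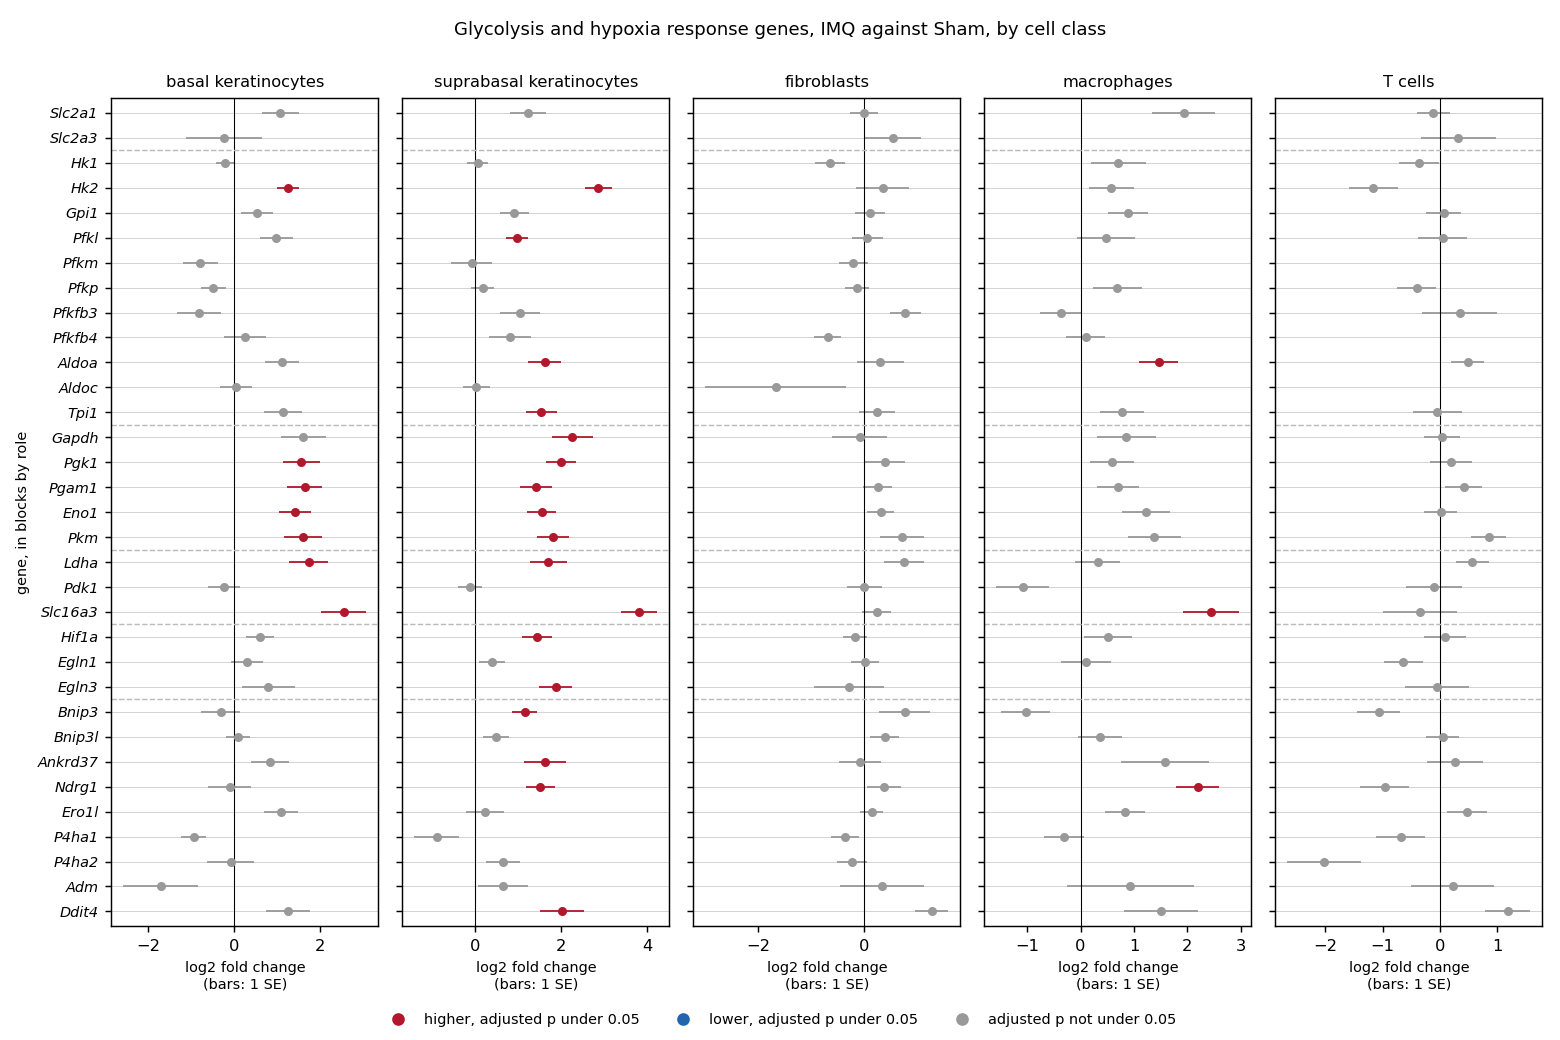
Log2 fold change of each member from Sham to IMQ (x axis; points with bars of 1 SE from edgeR, n = 2 libraries per group) in 5 cell classes, ordered by role, with called members marked. The points of suprabasal keratinocytes lie mostly right of 0 (29 of 32 members), while those of fibroblasts and T cells scatter around 0.

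The sequences before the start sites of 4 of the genes that rose show the short motif that HIF-1 binds. The 250 bases before the RefSeq start site on GRCm38.p6 were searched on both strands for ACGTG and GCGTG, 2 forms of the hypoxia response element core, and CACGTG counts on each strand because it reads the same on both. Hk2 lies on chromosome 6 from 82725025 to 82774454 on the minus strand and its window is chr6:82774455-82774704. Ldha lies on chromosome 7 from 46841475 to 46855627 on the plus strand and the window shown is chr7:46845554-46845803. Pgk1 lies on chromosome X from 106187100 to 106203699 on the plus strand and its window is chrX:106186850-106187099. Slc16a3 lies on chromosome 11 from 120948480 to 120960868 on the plus strand and its window is chr11:120948817-120949066. Gene spans are those of GENCODE vM21 on GRCm38. The windows are written 5′ to 3′ on the strand of the gene with matches to either form, on either strand, in capitals.
Hk2: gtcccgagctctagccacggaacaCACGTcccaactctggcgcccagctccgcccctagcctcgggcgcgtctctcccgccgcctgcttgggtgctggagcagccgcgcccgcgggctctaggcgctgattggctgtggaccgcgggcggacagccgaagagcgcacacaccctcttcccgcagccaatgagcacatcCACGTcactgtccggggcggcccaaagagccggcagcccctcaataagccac
Ldha: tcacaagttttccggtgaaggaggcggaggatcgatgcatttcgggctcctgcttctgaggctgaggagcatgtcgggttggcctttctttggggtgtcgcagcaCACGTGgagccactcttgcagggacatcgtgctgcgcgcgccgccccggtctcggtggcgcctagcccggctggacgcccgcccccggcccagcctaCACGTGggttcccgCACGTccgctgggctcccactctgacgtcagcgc
Pgk1: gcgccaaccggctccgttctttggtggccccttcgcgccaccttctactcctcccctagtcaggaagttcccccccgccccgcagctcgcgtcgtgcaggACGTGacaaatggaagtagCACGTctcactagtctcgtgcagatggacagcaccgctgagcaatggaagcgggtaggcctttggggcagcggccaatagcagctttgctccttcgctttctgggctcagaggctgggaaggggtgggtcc
Slc16a3: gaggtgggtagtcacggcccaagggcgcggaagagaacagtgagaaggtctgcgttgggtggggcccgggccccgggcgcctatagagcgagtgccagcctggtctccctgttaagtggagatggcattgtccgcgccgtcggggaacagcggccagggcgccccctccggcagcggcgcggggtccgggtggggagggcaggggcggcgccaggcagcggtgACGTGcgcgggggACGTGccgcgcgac
Ldha held 5 matches, counting its CACGTG sites on each strand, and the other windows shown held 2 each. A second Ldha window, chr7:46846832-46847081, is not shown and held 1 match, to GCGTG. The windows of Pgam1, Eno1 and Pkm, which also rose, are not shown either. They held 3 matches in Pgam1, 1 or 2 in Eno1 and 0 or 1 in Pkm. RefSeq promoters were at hand for 30 of the 33 members, and 28 of these 30 (93.3%) had a match in at least 1 promoter, against 41.5% of 27025 genes. By single promoter the share was 83.7% of 43 for the members and 38.6% of 32851 for all. The members were chosen by name as glycolysis and hypoxia response genes, so this excess is no independent evidence about the set. The promoters of all genes were not matched for base content. A match describes letters and shows neither binding nor a cause.

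In suprabasal keratinocytes, the differentiating layers above the basal one, the same comparison gave a higher count. Of 32 members tested, 17 rose and 0 fell from Sham to IMQ, where 9.01% of all genes rose. All 5 genes of the later steps, 4 of 11 of the first steps, 2 of 3 of pyruvate and lactate fate, 2 of 3 of oxygen sensing and 4 of 9 other hypoxia response genes rose. Slc2a3 was too rare to be tested. The median log2 fold change was 1.19 over the members and -0.03 over all genes tested.

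Hk2 was at 24.2 and 42.9 UPM in Sham, 201 and 176 in IMQ, then 194 and 232 with SHP099 added. The treated libraries lay far above the Sham ones, and the rise from Sham to IMQ was 7.28-fold (log2 2.86, SE 0.32, n = 2 per group, adjusted p = 0.000393). Gapdh was at 641 and 518 UPM in Sham, 2355 and 2143 in IMQ, then 2919 and 1554 with SHP099 added, and rose 4.80-fold (log2 2.26, SE 0.48, adjusted p = 0.0107). Pgk1 was at 145 and 159 UPM in Sham and 498 and 466 in IMQ, a 3.99-fold rise (log2 1.997, SE 0.36, adjusted p = 0.0046). In these 3 genes the IMQ libraries lay closer to each other than to either Sham library.

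Pkm rose by 1.81 (SE 0.37) on the log2 scale, from 359.8 and 316 UPM to 1021 and 893. Ldha rose by 1.71 (SE 0.42), from 323 and 374 UPM to 919.7 and 884. Eno1 rose by 1.55 (SE 0.34), from 162 and 167 UPM to 392 and 379. Among the first steps, the aldolase Aldoa rose by 1.62 (SE 0.39), from 423 and 350.1 UPM to 968 and 953, and triosephosphate isomerase, Tpi1, rose by 1.54 (SE 0.36), from 197 and 198 UPM to 466 and 454. Sham and IMQ libraries did not overlap in any of these enzymes, and their fold changes spanned 2.91 to 3.52. The enzymes were named because they passed, so the lack of overlap is no added support.

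Oxygen sensing and hypoxia response genes passed here, unlike in the basal class, but the difference between the 2 layers was not tested. Egln3, a prolyl hydroxylase that is itself induced by HIF-1, was at 27.0 and 34.6 UPM in Sham, 98.7 and 78.7 in IMQ, then 224 and 127 with SHP099 added (log2 1.87 from Sham to IMQ, SE 0.38, adjusted p = 0.00877). Hif1a itself was at 119 and 146 UPM in Sham and 289 and 276 in IMQ (log2 1.44, SE 0.35, adjusted p = 0.0197). Ndrg1, a stress and differentiation gene of epithelia, was at 101 and 119 UPM in Sham and 308 and 189 in IMQ (log2 1.52, SE 0.34, adjusted p = 0.0137). Ddit4, an inhibitor of mTORC1 also known as REDD1, was at 12.1 and 24.1 UPM in Sham and 62.5 and 48.9 in IMQ (log2 2.02, SE 0.51, adjusted p = 0.0242). In all 4 genes both IMQ libraries exceeded both Sham libraries, which is no added support because they were named for passing.

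The remaining 5 members that rose had log2 fold changes from 0.98 to 3.80. The highest of these was Slc16a3, singled out after its values were seen, at 0.85 and 1.35 UPM in Sham and 11.0 and 12.8 in IMQ, so it rose from a low level to a level still below that of the basal class. Slc2a1 was at 31.4 and 34.3 UPM in Sham and 59.2 and 63.7 in IMQ (log2 1.23, SE 0.42, adjusted p = 0.0704) and missed the threshold. P4ha1 was low throughout, at 1.74 to 9.62 UPM over the 6 libraries.

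Of 28 other hypoxia response genes tested in suprabasal keratinocytes, 13 rose and 3 fell, and of 10 other glycolysis genes 3 rose and 1 fell. Pdk4, a kinase that inhibits pyruvate dehydrogenase in mitochondria, rose by 5.62 (SE 0.76) and Stc2 by 4.57 (SE 0.75) on the log2 scale. On the same scale the carbonic anhydrases Car9 and Car12 rose by 3.21 (SE 0.79) and 2.65 (SE 0.27), and Vegfa, the vessel growth factor, by 2.71 (SE 0.38). Car9 was rare, with mean levels of 1.13 UPM in IMQ and 0.129 in Sham.

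The suprabasal class of Sham 2 held 89 inner root sheath cells of the hair follicle. Without such cells, an alternative chosen after seeing the data, 17 members still rose, beside 1245 of 12114 genes. Suprabasal cells of Sham had medians of 13319 and 18855 UMIs per cell, against 36659.5 and 37525 for IMQ. The summed neutrophil markers, S100a8 and S100a9 among them, were 42 and 20 UPM in Sham and 46508 to 78911 in the treated libraries. The part of depth and of these markers was not tested. The count depended on single libraries. In fits that left 1 library in a group, the members' median log2 fold change was 1.09 without IMQ 1, 1.47 without IMQ 2 and 1.28 without Sham 2. With class totals, where the median of all genes was -0.38, 14 members rose and 0 fell. Beside them 706 of 12252 genes rose and 1643 fell.

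In dermal fibroblasts 0 of 33 members passed the adjusted threshold from Sham to IMQ, where 0.422% of all genes passed in either direction. At an unadjusted p under 0.05 there were 3 members, against 12.1% of all genes. DESeq2 called 1 member, which rose, beside 232 of 21278 genes that rose and 450 that fell. The median log2 fold change was 0.14 for the members and -0.01 over all genes. Gapdh was at 1085 and 620.0 UPM in Sham and 765 and 856 in IMQ, so both IMQ libraries lay between the Sham ones. Ldha was at 192 and 233 UPM in Sham and 316 and 366 in IMQ, Hif1a at 105 and 151 against 102 and 113, and Slc2a1 at 17.9 and 18.4 against 17.2 and 17.7.

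The fibroblast members with the largest fold changes among those with a mean of at least 20 UPM in either group were Ddit4 at 1.27 (SE 0.31), Bnip3 at 0.76 (SE 0.47), Ldha at 0.75 (SE 0.38) and Pkm at 0.72 (SE 0.41) on the log2 scale, with adjusted p of 0.143, 0.658, 0.528 and 0.61. Ddit4 was at 10.0 and 14.9 UPM in Sham and 34.5 and 22.5 in IMQ, without overlap, and it was the gene that DESeq2 called. Bnip3, a mitophagy receptor, was at 33.7 and 17.0 UPM in Sham and 52.2 and 32.8 in IMQ, with overlap. Of the other pathway genes tested in fibroblasts, 13 of glycolysis and 28 of the hypoxia response, 0 passed, and the number of libraries limits what could be seen.

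The difference between the classes was tested directly, as the IMQ effect in basal keratinocytes minus that in fibroblasts. Of 33 members 1 was higher, Gapdh, with a difference of log2 fold changes of 1.53 (SE 0.34, adjusted p = 0.0284), where 4.41% of all genes were higher. At an unadjusted p under 0.05 there were 13 of 33 members, against 27.7% of all genes, and the median difference was 0.69 for the members against -0.18 for all genes. Just outside the threshold were Pgk1 at 1.07 (adjusted p = 0.0519), Slc16a3 at 2.23 (adjusted p = 0.0519) and Pgam1 at 1.30 (adjusted p = 0.0529). Of the other pathway genes, 0 of 13 in glycolysis and 6 of 29 in the hypoxia response differed, 2 with a higher and 4 with a lower effect in basal cells. No member passed without Sham 1, without IMQ 1 or with profile-based classes. There were 3 higher and 1 lower without Sham 2, 2 higher and 1 lower without IMQ+SHP099 1, 2 higher and 2 lower without IMQ+SHP099 2, and 10 higher and 1 lower with DESeq2.

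In macrophages, phagocytes that use glycolysis when activated, 3 of 28 members tested rose from Sham to IMQ and 0 fell, where 2.72% of all genes rose. Slc2a3, Pfkm, Aldoc, Egln3 and P4ha2 were too rare for the test. The members that rose were Aldoa, Slc16a3 and Ndrg1, 1 each of the first steps (9 tested), of pyruvate and lactate fate (3 tested) and of the other hypoxia response genes (8 tested), and the median log2 fold change was 0.70 over the members and -0.02 over all genes. Ndrg1 was at 41.3 and 38.0 UPM in Sham, 154 and 147 in IMQ, then 254 and 159 with SHP099 added, a 4.56-fold rise from Sham to IMQ (log2 2.19, SE 0.41, n = 2 per group, adjusted p = 0.016). Slc16a3 was at 41.3 and 18.5 UPM in Sham, 89.4 and 122 in IMQ, then 44.6 and 89.5 with SHP099 added (log2 2.45 from Sham to IMQ, SE 0.52, adjusted p = 0.0261). Aldoa was at 206 and 197 UPM in Sham and 461 and 508 in IMQ (log2 1.46, SE 0.37, adjusted p = 0.0449). The Sham and IMQ libraries did not overlap in any of these genes, which is no added support because they were named for passing.

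Gapdh in macrophages was at 1643 and 529 UPM in Sham and 1719.8 and 1830.5 in IMQ, and Ldha at 363 and 233 against 297 and 349.8. Hif1a was at 99.1 and 86.8 UPM in Sham and 117 and 106 in IMQ, and Slc2a1 at 33.02 and 6.83 against 34.7 and 32.8. For Gapdh, Ldha and Slc2a1 the Sham 1 value lay near or above an IMQ value, while Sham 2 lay below both IMQ libraries. Of the other pathway genes, 1 of 7 in glycolysis rose, and in the hypoxia response 1 rose and 1 fell of 21 tested. The muscle enolase Eno3 rose by 2.03 (SE 0.51), the circadian repressor Bhlhe40 rose by 3.17 (SE 0.41), and Txnip fell by 2.07 (SE 0.40) on the log2 scale.

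Sham 1 gave only 34 macrophages and Sham 2 gave 254, and the 8 stress genes summed to 2493 UPM in Sham 1 and 12522 in Sham 2, which was not tested. In Sham 1 the values of Slc16a3 and Ndrg1 rested on 5 UMIs each and that of Slc2a1 on 4. The Slc16a3 value of IMQ+SHP099 1 rested on 10 UMIs. The number of members that passed depended on single libraries. In fits that left 1 library in a group, the members' median log2 fold change was 1.16 without Sham 1 and 0.69 without Sham 2. It was 0.84 without IMQ 1 and 0.54 without IMQ 2.

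In T cells, where Pfkm, Pfkfb4 and Aldoc were too rare to be tested, 0 of 30 members passed from Sham to IMQ, as did 0% of all genes in either direction, and DESeq2 also called 0 members. At an unadjusted p under 0.05 there were 5 members, against 13.9% of all genes, and the median log2 fold change was 0.04, against -0.04 over all genes. Hk2 was at 120.2 and 175 UPM in Sham and 45.6 and 71.8 in IMQ, a direction opposite to that in keratinocytes (log2 -1.16, SE 0.42, adjusted p = 0.311). P4ha2 was at 54.7 and 17.4 UPM against 7.73 and 8.13 (log2 -2.02, SE 0.64, adjusted p = 0.273), Bnip3 at 24.0 and 23.6 against 11.0 and 8.13 (log2 -1.07, SE 0.38, adjusted p = 0.295), and Ddit4 at 54.7 and 86.5 against 179 and 97.6 (log2 1.18, SE 0.40, adjusted p = 0.281). In all 4 genes the groups did not overlap, yet none passed. They had the largest fold changes by size among members with a mean of at least 20 UPM in either group. The lack of overlap is thus no added support. In IMQ, P4ha2 rested on 21 and 6 UMIs and Bnip3 on 30 and 6. Gapdh stood at 2174 and 1620.0 UPM in Sham and 1866 and 1586 in IMQ, Ldha at 412 and 551 against 685 and 561, Hif1a at 162 and 228 against 192 and 171, and Slc2a1 at 50.6 and 64.1 against 44.5 and 48.8. Of 4 other glycolysis and 18 other hypoxia response genes tested, 0 passed, and 1 member fell when Sham 2 was left out.

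**Figure D2:**
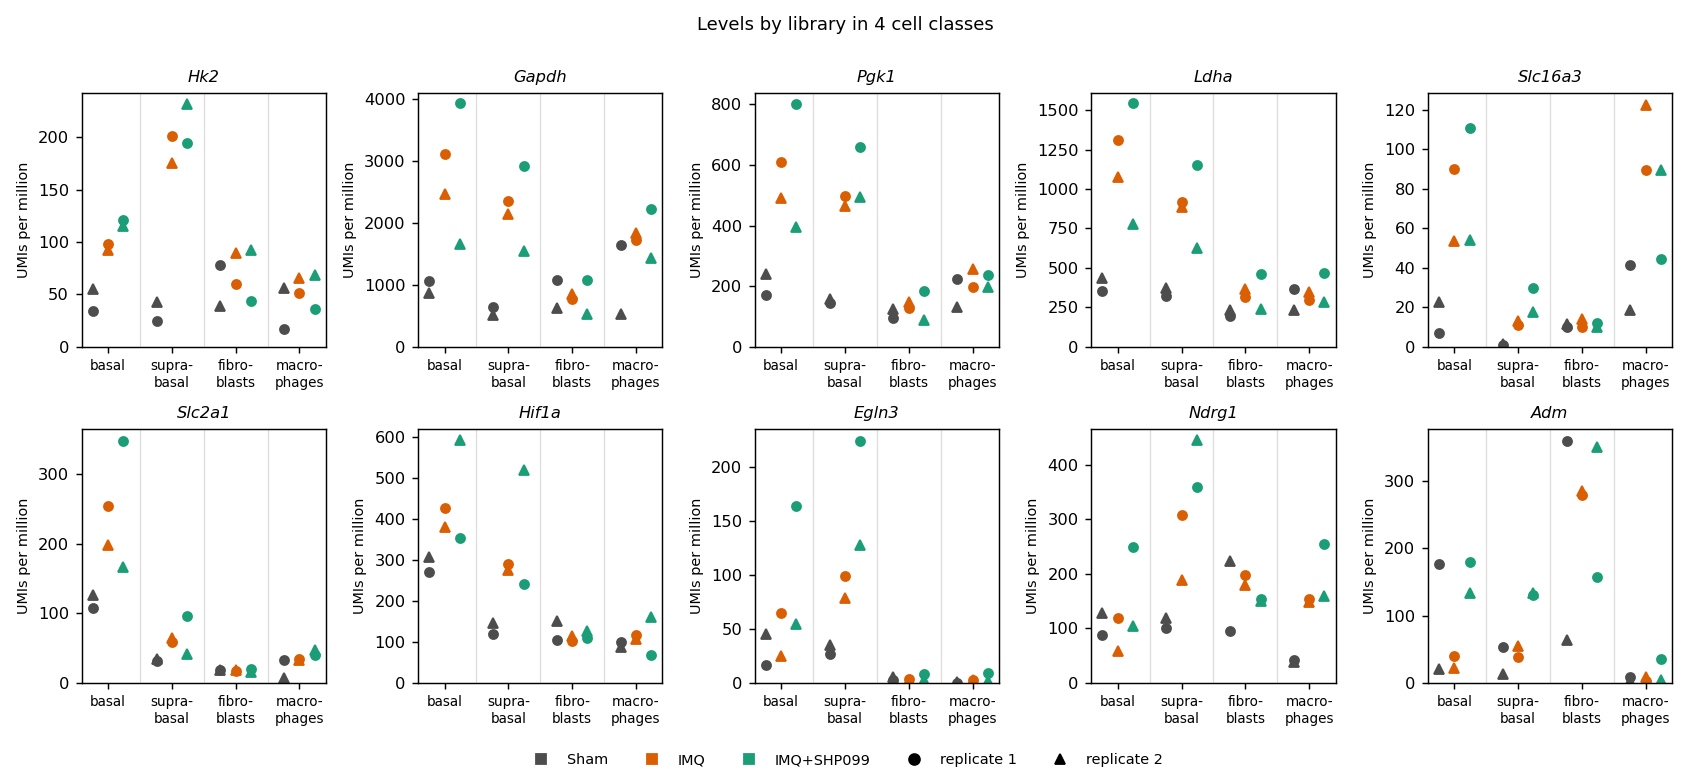
UPM of 10 members (1 panel each) in every library of Sham, IMQ and IMQ+SHP099, for basal and suprabasal keratinocytes, fibroblasts and macrophages, with 1 point per library. Hk2 in suprabasal keratinocytes sits at 24.2 and 42.9 in Sham and between 176 and 232 in the 4 treated libraries, while Slc2a1 in fibroblasts stays between 15.0 and 19.1.

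Setting IMQ+SHP099 against IMQ asked whether the inhibitor moved these genes in inflamed skin. After adjustment 0 members and 0% of all genes passed in basal keratinocytes, suprabasal keratinocytes, fibroblasts, macrophages and T cells, and DESeq2 also called 0 members in each. The counts at an unadjusted p under 0.05 were 8 of 33 members in basal keratinocytes (3.02% of all genes), 5 of 32 in suprabasal keratinocytes (3.35%), 0 of 33 in fibroblasts (0.918%), 0 of 28 in macrophages (1.84%) and 1 of 30 in T cells (2.94%). The members lay mostly above 0 in keratinocytes, at 26 of 33 in the basal class (median log2 0.29) and 32 of 32 in the suprabasal class (median 0.41). In fibroblasts it was 22 of 33 (median 0.06), in macrophages 19 of 28 (median 0.07) and in T cells 12 of 30 (median -0.18), and over all genes the 5 medians lay between -0.03 and 0.03. Leaving out 1 library turned the sign of these 3 medians. The values were 12 of 33 above 0 (median -0.20) in fibroblasts without IMQ+SHP099 1, 11 of 27 (median -0.30) with 3 members at an unadjusted p under 0.05 in macrophages without IMQ+SHP099 2, and 18 of 31 (median 0.07) in T cells without IMQ 1.

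Adm had the largest difference in both keratinocyte classes among members with a mean of at least 20 UPM in either group. In the basal class it was at 40.3 and 22.6 UPM in IMQ and 180.0 and 134 in IMQ+SHP099 (log2 2.45, SE 0.90, unadjusted p = 0.0232, adjusted p = 1), and in the suprabasal class at 38.1 and 54.0 against 131 and 133 (log2 1.66, SE 0.59). Both groups were apart in both classes, but in basal cells the untreated Sham 1 library, at 177 UPM, was as high as the inhibitor-treated ones. Egln3 was at 64.4 and 24.7 UPM in IMQ and 163 and 54.2 in IMQ+SHP099 in the basal class, with overlap (log2 1.46, SE 0.63), and at 98.7 and 78.7 against 224 and 127 in the suprabasal class (log2 1.16, SE 0.37).

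In basal cells Ndrg1, at 119.5 and 58.7 UPM in IMQ and 249 and 104 in IMQ+SHP099, differed by 1.15 (SE 0.50). Ero1l, an oxidase of the endoplasmic reticulum, was at 55.1 and 41.1 UPM against 126 and 60.7 and differed by 1.13 (SE 0.40). In suprabasal cells Bnip3 was at 44.0 and 40.7 UPM in IMQ and 87.9 and 78.6 in IMQ+SHP099, a difference of 1.12 (SE 0.29, unadjusted p = 0.00337, adjusted p = 0.846). Slc16a3 was at 11.0 and 12.8 UPM against 29.8 and 17.4 and differed by 1.21 (SE 0.36). None of these passed after adjustment, so the data do not separate them from the spread between libraries.

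Gapdh and Ldha showed how far the 2 IMQ+SHP099 libraries lay from each other. Gapdh in basal cells was at 3934 UPM in IMQ+SHP099 1 and 1663 in IMQ+SHP099 2, on either side of the IMQ values of 3111 and 2475, and Ldha was at 1543 and 776 around 1311 and 1077. Slc2a1 was likewise at 348 and 167 UPM around 254 and 198. Hif1a had the opposite order, at 353 and 593 UPM in the basal class and 241 and 518 in the suprabasal class. In the suprabasal class Gapdh was at 2919 and 1554 UPM, Ldha at 1150.3 and 625 and Slc2a1 at 96.2 and 41.7. Without IMQ+SHP099 1, the library with the most UMIs per cell over all kept cells, the members' median difference from IMQ was -0.27 in basal cells, with 13 of 33 above 0, and 0.14 in suprabasal cells, with 23 of 32 above 0.

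In fibroblasts the 4 largest among members with a mean of at least 20 UPM in either group were Ndrg1 at -0.23 (SE 0.32), Aldoa at 0.22 (SE 0.44), Bnip3 at 0.20 (SE 0.46) and Hif1a at 0.20 (SE 0.22) on the log2 scale. In macrophages they were Adm at 0.96 (SE 0.90), which rested on 10 and 22 UMIs in IMQ and 8 and 7 in IMQ+SHP099, Hk1 at -0.73 (SE 0.49), Pfkfb4 at -0.51 (SE 0.36) and Gpi1 at -0.51 (SE 0.37). In T cells they were Slc2a3, the glucose transporter GLUT3, at -1.65 (SE 0.75), Bnip3 at 0.96 (SE 0.39), Pfkp at -0.61 (SE 0.35) and Egln3 at -0.58 (SE 0.60). For IMQ+SHP099, Gapdh was at 1077 and 531 UPM in fibroblasts, 2219 and 1435 in macrophages and 1540.3 and 1159 in T cells, Ldha was at 464 and 241, 468 and 280.2, and 630.3 and 470.2, Hif1a at 108 and 125, 66.8 and 159.9, and 119 and 221, and Slc2a1 at 19.1 and 15.0, 40.1 and 46.7, and 42.3 and 37.7. None of the other pathway genes passed in any of the 5 classes.

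The levels of single members differed widely between cell classes, and the following ranges over libraries are given as a description. Slc2a1 was highest in basal keratinocytes (107.8 to 347.9 UPM, median 182.4) and cycling keratinocytes (95.7 to 282.0, median 170.8), 2 classes whose ranges overlapped almost wholly, followed by neutrophils (85.0 to 108.0, median 97.7), with fibroblasts far below (15.0 to 19.1, median 17.8). Slc2a3, a transporter with a higher affinity for glucose, was nearly absent from keratinocytes, at 1.5 UPM or less, and stood at 175 to 299 UPM in neutrophils, 76.3 to 248 in mast cells or basophils (3 libraries, overlapping with neutrophils) and 4.5 to 42.0 in T cells. Of the 2 glucose transporters, keratinocytes carried almost only Slc2a1, while neutrophils carried both.

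Slc16a3 was highest in neutrophils (392 to 518 UPM) and did not overlap there with any of mast cells (14.6 to 166.3), macrophages (18.5 to 122.4) or basal keratinocytes (6.9 to 110.8), whose ranges overlapped one another. Hk2 was highest by median in suprabasal keratinocytes (24.2 to 231.6 UPM, median 184.9) and low in endothelial cells (1.9 to 17.6, median 6.2). Ndrg1 was highest in Schwann cells, where it is a known myelin gene, at 1117 to 2757 UPM in 5 libraries, followed by endothelial cells (432 to 666), and was lowest among the classes shown in neutrophils (13.1 to 34.0). Among hypoxia response genes, fibroblasts had the highest median for P4ha1 (66.5 to 126.6 UPM, median 94.1), which serves collagen synthesis and overlapped there with Schwann cells (13.02 to 124.1), and for Adm (63.3 to 360.1, median 282.4), where basal keratinocytes overlapped with them (20.1 to 180.0).

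**Figure D3:**
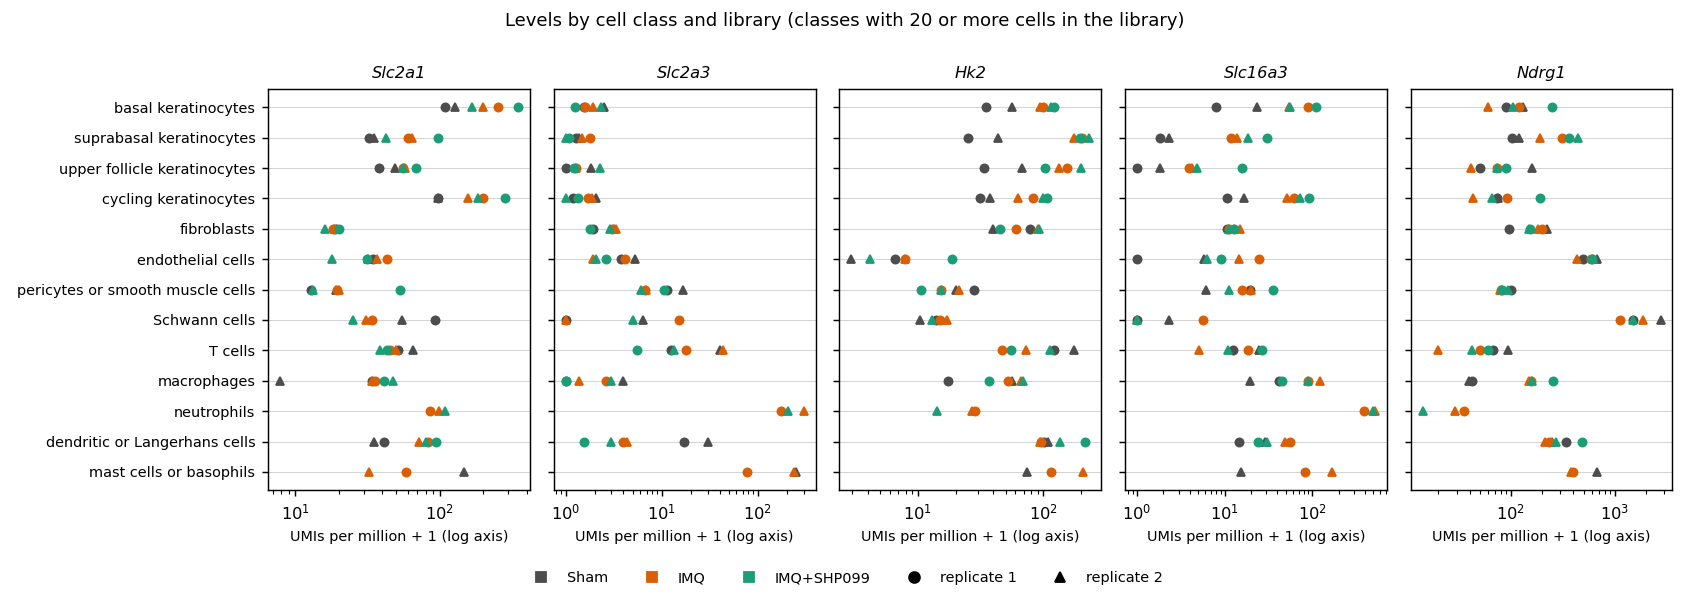
UPM plus 1 on a log axis for Slc2a1, Slc2a3, Hk2, Slc16a3 and Ndrg1 in 13 cell classes, with 1 point per library that held at least 20 cells of the class. Neutrophils hold the top position for Slc16a3 (392 to 518 UPM) and Schwann cells for Ndrg1 (1117 to 2757 UPM).

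The 2 keratinocyte layers were compared within libraries. Of 32 members tested, 8 were higher in suprabasal than in basal cells, where 26.4% of all genes were higher, and 3 were lower, where 27.5% were. When class totals were used as library size in place of TMM factors, which moved the median of all genes from -0.01 to -0.33 on the log2 scale, 4 members were higher and 12 lower. The shares of all genes under class totals are not given here, so these counts do not set the members apart from other genes. With cells classed by their whole profile, 15 members were higher, where 25.8% of all genes were, and 2 were lower, where 28% were. The directions of Aldoc, Pfkfb4, Egln3 and Ndrg1 (higher) and of Slc2a1, Slc16a3 and P4ha1 (lower) passed under both scalings.

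Aldoc, the brain-type aldolase, was at 16.6 to 25.4 UPM in suprabasal cells and 2.4 to 7.4 in basal cells, a log2 difference of 2.13 (SE 0.20, n = 6 libraries, edgeR adjusted p = 6.12e-05). Slc2a1 was at 31.4 to 96.2 UPM in suprabasal and 107.8 to 347.9 in basal cells with a log2 difference of -1.55 (SE 0.09, adjusted p = 7.34e-06) and no overlap. P4ha1 and Slc16a3 were lower too, with log2 differences of -2.39 (SE 0.17) and -2.18 (SE 0.30). Ndrg1 was higher by 1.27 (SE 0.32), Pfkfb4, a regulator of phosphofructokinase, by 1.26 (SE 0.26), Egln3 by 1.03 (SE 0.25) and, under TMM but not class totals, Hk2 by 0.80 (SE 0.26), the mitophagy receptor Bnip3l by 0.61 (SE 0.13), Ankrd37 by 0.53 (SE 0.19) and Eno1 by 0.39 (SE 0.09). This fit took Sham and treated libraries together. By UPM, Hk2 was lower in suprabasal than in basal cells in both Sham libraries. So were Ndrg1, Egln3, Bnip3l and Eno1 in Sham 2 and Ankrd37 in Sham 1. Eno1 was lower in suprabasal cells in IMQ 1 and IMQ+SHP099 1 too. In every treated library Hk2, Ndrg1, Egln3, Bnip3l and Ankrd37 were higher in suprabasal cells. Whether the layer difference depended on treatment was not tested. Of the other pathway genes 2 of 11 in glycolysis were higher and 4 lower, and 5 of 28 in the hypoxia response were higher and 8 lower. Gapdhs was higher by 2.06 (SE 0.21), and Slc16a7, Car9, Plod1 and Slc16a1 had log2 differences of -2.29 (SE 0.39), -2.04 (SE 0.43), -1.61 (SE 0.39) and -1.59 (SE 0.25).

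Neutrophils and macrophages were compared in the 3 libraries with enough neutrophils, IMQ 1, IMQ 2 and IMQ+SHP099 2, all of treated skin. Pfkm, Aldoc, Pdk1, P4ha2 and Adm were too rare here. Of 28 members tested, 20 were higher in neutrophils, where 27.2% of all genes were higher, and 2 were lower, where 28.2% were. Under class totals, which moved the median of all genes from -0.12 to -1.08, 9 were higher and 8 lower. Here too the shares of all genes are not given, so the counts under class totals do not set the members apart from other genes.

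Slc2a3 was counted 134, 474 and 62 times in the neutrophils of these libraries and 5, 1 and 3 times in their macrophages. Slc16a3 was at 392, 518 and 494 UPM in neutrophils against 89.4, 122 and 89.5 in macrophages, a log2 difference of 3.13 (SE 0.19, edgeR adjusted p = 2.07e-13). Pfkfb4 was at 57.5, 65.6 and 55.7 UPM in neutrophils and was higher by 2.34 (SE 0.23), and Slc2a1 was at 85.0, 97.7 and 108 against 34.7, 32.8 and 46.7 and was higher by 2.31 (SE 0.20). Bnip3 at 1.76 (SE 0.35), Ddit4 at 1.73 (SE 0.30), Gpi1 (glucose-6-phosphate isomerase) at 1.59 (SE 0.19) and Ldha at 1.39 (SE 0.20) were higher under both scalings as well, as was Egln3. Ndrg1 was at 34.0, 27.7 and 13.1 UPM against 154, 147 and 159 with a log2 difference of -1.53 (SE 0.24), and that of P4ha1 was -0.85, so both were lower. In these 3 libraries the groups of values for Slc16a3, Slc2a1 and Ndrg1 did not overlap.

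Under TMM, but not under class totals, Pfkfb3 at 1.30 (SE 0.23), Ero1l at 1.28 (SE 0.23) and Aldoa at 1.18 (SE 0.20) were higher, and so were 8 further members with differences from 0.56 to 1.54. Gapdh, among these, was at 2187, 2075 and 1231 UPM in neutrophils and 1719.8, 1830.5 and 1435 in macrophages, and its values overlapped. Of the other pathway genes, 1 of 5 in glycolysis was higher and 2 lower, and 6 of 17 in the hypoxia response were higher and 1 lower. Hk3, the hexokinase of myeloid cells, was higher by 2.17 (SE 0.21), Txnip by 2.15 (SE 0.19), Vegfa by 1.79 (SE 0.23), Gbe1 by 1.45 (SE 0.38) and Mxi1 by 1.31 (SE 0.22) under TMM.

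**Figure D4:**
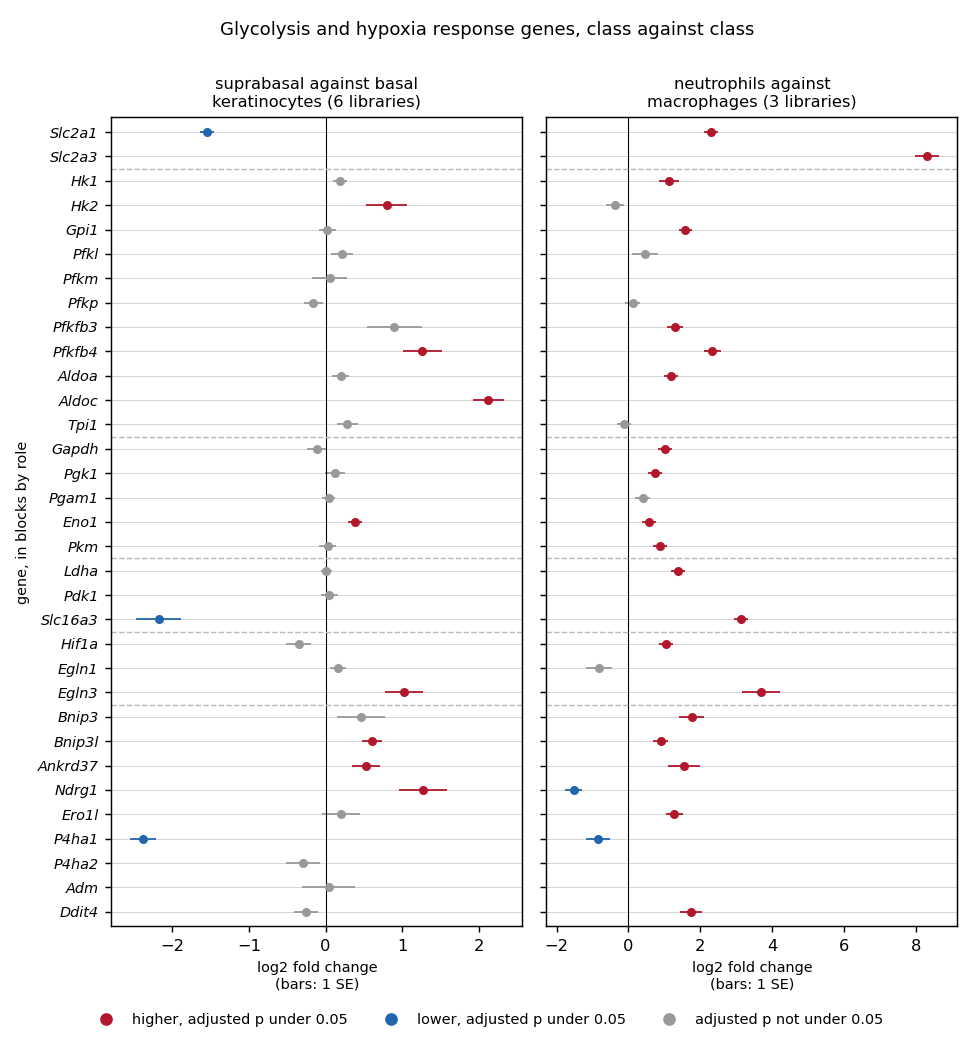
Log2 difference of each tested member with bars of 1 SE from edgeR (TMM scaling), for suprabasal minus basal keratinocytes (6 libraries) and neutrophils minus macrophages (3 libraries). Points right of 0 are higher in the first class. With class totals as library size the called members split 4 higher and 12 lower in the first comparison and 9 higher and 8 lower in the second. The shares of all genes under class totals are not given.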

How the data were processed

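Single-cell RNA libraries (10x 3-prime chemistry) of mouse dorsal skin were analysed, 2 per group in 3 groups. The authors made the deposited tables with Cell Ranger on GRCm38 (mm10). The deposited values are raw counts of UMIs per gene and cell, as the authors left them, and no barcode held fewer than 500 UMIs. Cells were kept below 100000 UMIs, 6500 genes and a mitochondrial share of 10%, and 45810 of 50850 (90.1%) received a class. A cell took the class with the highest relative marker score if that was at least 0.25 and the next class was under 0.75 of it (0.9 between keratinocyte layers); 1362 cells that scored for more than 1 class were left out, which stood in for a doublet caller, and 2326 cells (4.57%) lay within 0.05 of a limit. The markers contained no member, and the scoring limits were set after seeing the data.

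UMIs were summed per class and library where at least 20 cells were present and fitted with edgeR 4.0.16 in R 4.3.3 (filterByExpr, TMM, quasi-likelihood test, all 6 libraries), with p-values adjusted over all genes tested by Benjamini and Hochberg and called under 0.05. Classes were compared with the library as a block. The SE is the log2 fold change over the root of the F statistic. Fits were tested on simulated data. The text names every called member, or the 12 with the largest change among those of at least 20 UPM where over 12 passed, or up to 4 such members where none passed, besides Gapdh, Ldha, Hif1a and Slc2a1 in every class and up to 5 called genes of the lists of 20 glycolysis and 29 hypoxia response genes. A member met the limit of 20 UPM if its mean reached it in either arm of the comparison. It could thus enter through the higher arm alone. Where a gene was named for its test result or fold change, groups without overlap in that gene are no added support. The members and lists were chosen with earlier results of these data known. Alternatives were DESeq2 1.42.0, class totals as library size, no filter on low counts, under 5% mitochondrial UMIs, a stricter gate, classes by whole profile, only the groups compared, the replicate number as a block, and each library left out.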

Additional observations from a re-analysis of the deposited data

Results flagged for a closer look

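The effect of IMQ differed between basal keratinocytes and fibroblasts, by the interaction test, for 6 of the members and other pathway genes tested and named by the fixed rule, and each value is the log2 fold change from Sham to IMQ in basal cells minus that in fibroblasts. It was 1.53 for Gapdh, the only member. It was 3.57 for Stc2 and 2.47 for Car12, and it was -2.64 for Txnip, -3.15 for Rora and -4.09 for Epas1, the gene of the HIF-2 alpha subunit. No outlying sample could be looked for in groups of 2.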

How the results depend on the processing

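With the replicate block, which uses the shared library numbers, 14 members were called in basal keratinocytes from Sham to IMQ (13 higher, 1 lower). There were 18 in suprabasal keratinocytes, 2 in macrophages and 0 in each other contrast between groups. Beside them 1555 of 12592 genes rose and 1609 fell in basal keratinocytes. In suprabasal keratinocytes 1355 of 12252 genes rose and 1246 fell, and in macrophages 230 of 8618 rose and 227 fell. Where no number or share over all genes is given, a count does not set the members apart from other genes. No source ties same-numbered libraries to a shared batch or animal, and 2 numbers are too few to settle pairing from the data. Their deviations correlated at 0.13 to 0.22 in basal keratinocytes and 0.16 to 0.39 in T cells, and from -0.01 upward over all 5 classes. In basal keratinocytes the count of 7 became 12 with DESeq2, 15 with no filter (13 higher, 2 lower) and 1 with profile classes. With no filter macrophages gave 5, fibroblasts 1 and T cells 2 (both lower). Under that setting 1280 of 19922 genes rose and 1735 fell in basal keratinocytes. In macrophages 530 of 15554 genes rose and 686 fell, and in fibroblasts 448 of 21278 rose and 935 fell. DESeq2 gave 1 in fibroblasts, beside 232 of 21278 genes that rose and 450 that fell. IMQ+SHP099 against IMQ gave 3 in basal and 2 in suprabasal keratinocytes with no filter. Beside them 123 of 19922 genes were higher and 42 lower in the basal class, and 72 of 18827 higher and 59 lower in the suprabasal class. Suprabasal against basal gave 17 with profile classes (15 higher, 2 lower). The basal minus fibroblast effect gave 11 with DESeq2 (10 higher), 4 with class totals, 8 with no filter (5 higher), 2 under 5% mitochondrial UMIs, 4 with the stricter gate (3 higher) and 0 with profile classes. Leaving out each library gave 0 to 8 members in basal keratinocytes, 2 to 18 in suprabasal keratinocytes, 0 to 7 in macrophages, 0 to 1 in T cells and 0 to 0 in fibroblasts from Sham to IMQ, 0 to 0 in each contrast with SHP099, 9 to 13 between layers, 19 to 22 between neutrophils and macrophages, and 0 to 4 for the effect difference. For IMQ+SHP099 against IMQ the direction reversed in Aldoa of fibroblasts (-0.19 without IMQ+SHP099 1, range -0.19 to 0.51 over libraries left out), Bnip3 of fibroblasts (-0.11 without IMQ+SHP099 2, -0.12 without IMQ 2, range to 0.60) and Adm of macrophages (-0.26 without IMQ+SHP099 1, range to 2.53; -0.22 with profile classes). The cause was not tested. With 2 pooled libraries per group, moderate changes could not be separated from the spread.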
